A study of Mus musculus with 6 samples.

Results

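The AP-1 transcription factor family was followed here through 10 genes chosen by name: the Fos group (Fos, Fosb, Fosl1 and Fosl2), the Jun group (Jun, Junb and Jund), Batf3, and the small Maf genes Maff and Mafk. All 10 were among the 24421 genes of the deposited table, and all 10 were among the 11386 genes that passed a filter on low values. The cells were 4T1, a mouse mammary carcinoma line of epithelial origin, grown in culture in DMEM with 10% FBS at 21% O2 and 5% CO2. One group carried a control short hairpin RNA (shCTL, labelled genotype CTL) and the other a hairpin directed against HSF1 (shHSF1, labelled genotype HSF1 shRNA), with 3 libraries each, numbered replicates 1 to 3. HSF1 is the transcription factor of the heat shock response. The hairpin sequence, and whether each group was a pool or a clone, were not stated in the labels. Levels are in RPKM, which divides a gene's reads by its length and by the size of the library and so allows levels of different genes to be compared.

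AP-1 is a dimer of proteins that share a basic region, which contacts DNA, and a leucine zipper, which joins the partners. Jun proteins pair with each other or with Fos proteins, and the dimers bind the site TGACTCA in genes for proteases, cytokines, growth factors and cell cycle regulators. Several members are immediate-early genes, transcribed within minutes of serum, growth factor or stress signals that arrive through the MAP kinases. In breast carcinoma cells Fosl1, which encodes FRA-1, is known for its part in invasive and mesenchymal states. Batf3 and the small Maf proteins lack a transactivation domain of the Fos or Jun kind, and act through their partners.

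On the first principal component, which carried 53.8% of the variance, the replicate 1 libraries lay at −47.0 and −38.5, far from the remaining libraries at 13.4 to 30.7. On the second, with 26.0%, shCTL lay at −23.8 to −16.3 and shHSF1 at 15.3 to 31.0, with shHSF1 replicate 1 the highest. What either component reflects was not tested. Libraries held 23750025 to 36903175 assigned reads. Hsf1 itself ranged from 18.4 to 20.3 RPKM in shCTL. It measured 23.2 RPKM in the library labelled shHSF1 replicate 1, 13.8 in replicate 2 and 15.4 in replicate 3, so the first of these did not show a lower target. Over 6 libraries the log2 difference of Hsf1 was −0.20 (SE 0.21, limma adjusted p = 0.810), which did not pass. Without both replicate 1 libraries it was −0.46 (SE 0.099, limma adjusted p = 0.0433), in a fit where 11.1% of all genes passed. Each direction below rests on the shHSF1 replicate 1 label as given, and results are also given without both replicate 1 libraries. Of 6 epithelial markers 5 passed the filter and Krt5 was at 0; their summed level, most of it Krt18 and Krt8, was 1667 to 2417 RPKM in shCTL and 1250 to 1473 RPKM in shHSF1. Epcam, another of these markers, went the opposite way, with 12.7 to 14.7 RPKM in shCTL and 28.3 to 35.9 RPKM in shHSF1 (log2 difference 1.21, SE 0.14, limma adjusted p = 0.0930). The part of these markers in the results below was not tested. The summed level of 6 leukocyte markers was at most 5.66 RPKM, reached in shCTL replicate 1, and that of 4 endothelial markers at most 0.143 RPKM, with Kdr at 0. Among 6 fibroblast markers only Pdgfra passed the filter, and the list summed to 10.0 to 37.5 RPKM in shCTL and 15.7 to 22.8 RPKM in shHSF1, and Dpt and Thy1 were at 0.

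Promoter windows of 300 bases (250 before to 50 after each RefSeq start, GRCm38.p6, the assembly that mm10 names) were at hand for 9 of the 10 members, as 11 windows. Exact motifs were searched on both strands, so a variant of a motif, or a site outside the window, was not counted. TGACTCA, the AP-1 site, was in 0 of the 11 windows and in 5.20% of 32851 windows of all genes. The cyclic AMP response element TGACGTCA, which holds no TGACTCA, was in 1 window of Maff and in 1.79% of all windows. GAANNTTC, 2 units of a heat shock element facing each other, was in the windows of Jun and Fosl2 and in 7.86% of all. The CArG box, bound by serum response factor, was in none of the members' windows and in 1.63% of all. The windows below are shown because Maff and Mafk were the members whose groups did not overlap, and because Jun and Fosl2 held the heat shock motif; capitals mark a motif, and none was found for Mafk. The Maff match began 29 bases before the start, the Jun match 128 bases before it and the Fosl2 match 244 bases before it. The windows are chr15:79347270-79347569 (plus strand, one of 3 for Maff), chr5:139791286-139791585 (plus, Mafk), chr4:95052173-95052472 (minus, Jun) and chr5:32136222-32136521 (plus, Fosl2), each printed 5′ to 3′ on the gene's strand.
Maff: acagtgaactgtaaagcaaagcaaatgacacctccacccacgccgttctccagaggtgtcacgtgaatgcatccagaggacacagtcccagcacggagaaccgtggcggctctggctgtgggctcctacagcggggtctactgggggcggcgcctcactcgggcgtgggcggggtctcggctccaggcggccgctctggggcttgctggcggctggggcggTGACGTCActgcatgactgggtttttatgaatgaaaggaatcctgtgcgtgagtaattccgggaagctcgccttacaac
Mafk: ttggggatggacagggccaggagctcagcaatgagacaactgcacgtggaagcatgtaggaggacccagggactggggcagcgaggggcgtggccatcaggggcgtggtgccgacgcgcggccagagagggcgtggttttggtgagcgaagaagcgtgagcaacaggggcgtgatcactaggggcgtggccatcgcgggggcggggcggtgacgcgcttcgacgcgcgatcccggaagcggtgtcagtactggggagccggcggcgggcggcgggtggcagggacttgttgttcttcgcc
Jun: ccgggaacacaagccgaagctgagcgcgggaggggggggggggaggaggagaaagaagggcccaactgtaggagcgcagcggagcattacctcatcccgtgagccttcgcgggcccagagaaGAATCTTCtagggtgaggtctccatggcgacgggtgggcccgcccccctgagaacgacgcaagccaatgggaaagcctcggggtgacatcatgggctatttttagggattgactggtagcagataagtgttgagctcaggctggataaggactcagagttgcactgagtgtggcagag
Fosl2: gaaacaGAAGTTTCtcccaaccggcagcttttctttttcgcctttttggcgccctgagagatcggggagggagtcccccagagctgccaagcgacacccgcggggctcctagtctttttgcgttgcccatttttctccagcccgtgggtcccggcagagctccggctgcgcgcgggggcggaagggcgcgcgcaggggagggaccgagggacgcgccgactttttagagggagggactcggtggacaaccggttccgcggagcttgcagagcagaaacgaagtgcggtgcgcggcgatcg

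The family's transcript pool in these cells was led by Junb, Jund and Fosl1, with Fos and Batf3 at its foot. The place of Fosl1 is uncertain, since 67.7% of its exon bases are shared with another gene, as given below. Over the 6 libraries the mean level was 91.3 RPKM for Junb, 60.2 for Jund, 57.3 for Fosl1, 24.4 for Fosl2, 24.3 for Jun, 13.5 for Maff, 10.0 for Mafk, 3.82 for Fosb, 2.23 for Fos and 1.96 for Batf3. Some neighbours in this order were not separated. Jund lay above Fosl1 in 4 of 6 libraries, Fosl2 above Jun in 2, Fosb above Fos in 4 and Fos above Batf3 in 5, while Fosl1 lay above Fosl2 in 4. Junb lay above Jund, Jun above Maff, Maff above Mafk and Mafk above Fosb in all 6. The spread across libraries was smallest for Junb, whose highest level was 1.39 times its lowest, and largest for Fos at 5.79 and Batf3 at 5.28 times. Because RNA was taken from whole cultures, fewer cells with a transcript and less of it per cell cannot be told apart.

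**Figure D1:**
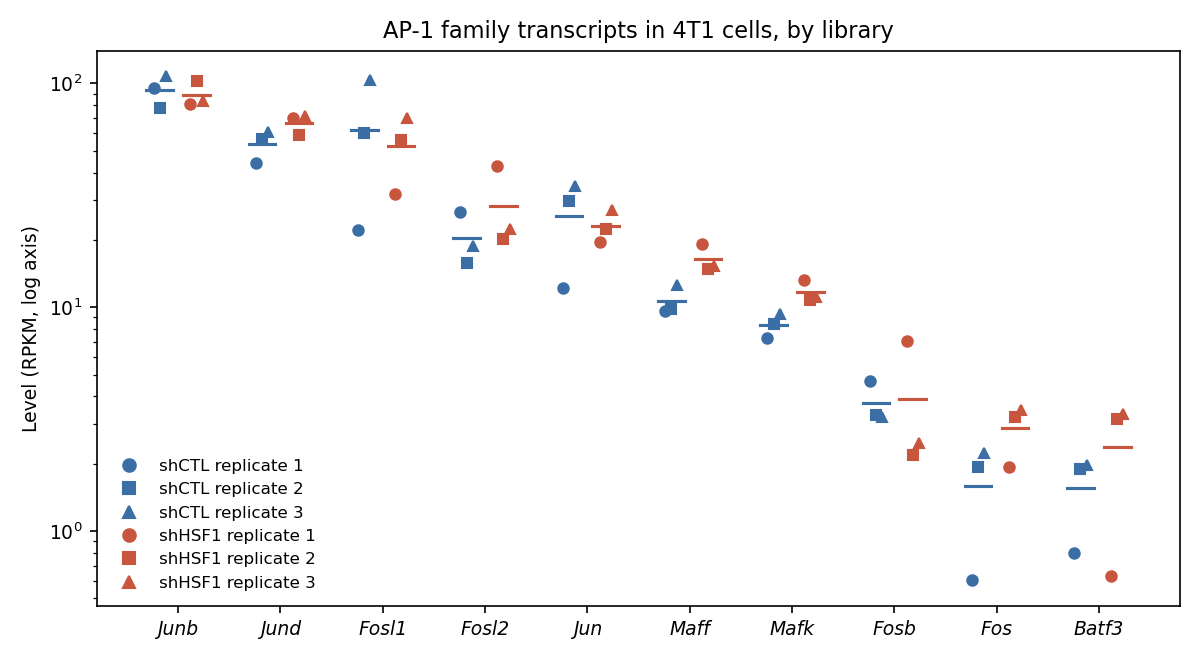
Level of each member (RPKM, log axis) in each library, with shCTL in blue, shHSF1 in red, replicates by symbol and group means as bars. Maff and Mafk are the members whose 3 shHSF1 libraries all lie above the 3 shCTL libraries; Fosl1, Fos and Batf3 spread widely within each group, with replicate 1 lowest.

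The question for the hairpin was whether AP-1 transcripts differed between the groups. None of the 10 members passed (limma on log2(RPKM + 0.5), Benjamini-Hochberg adjusted p under 0.05 over all genes), where 3 of 11386 genes (0.0263%) did. At an unadjusted p under 0.05 there were 2 of 10 members, Maff and Mafk, against 11.4% of all genes. In the same 2 members the groups did not overlap, both higher in shHSF1, where 12.9% of all genes were separated upward and 7.16% downward. Both counts are close to the share of all genes, and neither is a result about the family. The median log2 difference was 0.33 over the members and 0.052 over all genes tested. Above 0 were 6 of 10 members, with 4 below, and 6500 of 11386 genes. In limma-voom on recovered reads 0 members and 0.0966% of genes passed, and with the replicate number as a block 0 members passed and 0.176% of genes, or 0.931% in the blocked voom fit. With replicate 1 as a batch covariate 0 members passed, against 5.64% of genes. Without both replicate 1 libraries 1 of 10 members, Batf3, passed, against 11.1% of genes.

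Junb, a Jun protein that can restrain as well as drive AP-1 targets, measured 95.4, 77.6 and 108 RPKM in shCTL, given for replicates 1 to 3 here and below, against 80.8, 103 and 83.5 RPKM in shHSF1. The groups overlapped throughout, and the replicate 2 pair went the opposite way from the other pairs. The log2 difference was −0.069 (SE 0.17, 95% interval −0.48 to 0.34, limma adjusted p = 0.932). Jund, which is expressed in most tissues and responds little to serum, stood at 44.2, 56.6 and 60.4 RPKM in shCTL against 69.8, 58.8 and 71.6 RPKM in shHSF1. Each shHSF1 library lay above its same-numbered control, but shHSF1 replicate 2 lay below shCTL replicate 3, so the groups overlapped. The difference was 0.32 (SE 0.16, interval −0.072 to 0.71, limma adjusted p = 0.532), and 0.15 without both replicate 1 libraries. Jun, the founding member and the main substrate of the JNK kinases, stood at 12.2, 29.7 and 34.9 RPKM in shCTL against 19.7, 22.3 and 27.2 RPKM in shHSF1. The library with the lowest level and the 2 with the highest were all shCTL. The difference of −0.031 (SE 0.39, interval −0.96 to 0.90, limma adjusted p = 0.989) therefore came with a wide interval.

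In the Fos group, Fosl1 stood at 22.1, 60.3 and 103 RPKM in shCTL against 32.0, 56.0 and 69.9 RPKM in shHSF1. Replicate 1 was the lowest and replicate 3 the highest in both groups, and the shHSF1 values lay inside the shCTL range. The difference was −0.047 with the widest interval of the family (SE 0.58, −1.42 to 1.33, limma adjusted p = 0.988). Of the 1705 exon bases of Fosl1, 1155 (67.7%) are also exon bases of Ccdc85b, which lies on the opposite strand. Ccdc85b stood at 5.93, 6.45 and 7.17 RPKM in shCTL against 3.93, 5.31 and 5.88 RPKM in shHSF1. The strand setting of the counting was not stated in the labels, so the Fosl1 level is uncertain; no other member shared exon bases with a gene of the table.

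Fosl2, which encodes FRA-2, stood at 26.6, 15.7 and 18.7 RPKM in shCTL against 42.8, 20.2 and 22.4 RPKM in shHSF1. All 3 pairs were higher in shHSF1, and replicate 1 was the highest of its group in both. The difference was 0.43 (SE 0.33, interval −0.36 to 1.21, limma adjusted p = 0.699). It was 0.096 without shHSF1 replicate 1, and 0.26 without shCTL replicate 2. Fos, the serum-inducible partner of Jun, stood at 0.601, 1.93 and 2.23 RPKM in shCTL, from 31, 96 and 127 reads, against 1.93, 3.22 and 3.48 RPKM in shHSF1, from 99, 249 and 209 reads. All 3 pairs were higher in shHSF1, and shHSF1 replicate 1 lay below shCTL replicate 3, at nearly the level of shCTL replicate 2. The difference of 0.77 was the largest of the family over 6 libraries (SE 0.40, interval −0.19 to 1.72, limma adjusted p = 0.539). It ranged from 0.36, without shCTL replicate 1, to 1.01 when single libraries were left out. Without shCTL replicate 1 it lay below Fosl2 at 0.63 and Maff at 0.54, and without both replicate 1 libraries it was 0.58, below Batf3 at 0.62. Counting error alone gave an exact Poisson interval of 0.408 to 0.853 RPKM for shCTL replicate 1. Fosb, also inducible and known for a truncated form in brain, stood at 4.67, 3.31 and 3.22 RPKM in shCTL against 7.04, 2.20 and 2.47 RPKM in shHSF1. The replicate 1 pair was higher in shHSF1 and the other pairs lower, and the difference was −0.093 (SE 0.41, interval −1.09 to 0.90, limma adjusted p = 0.964).

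The small Maf genes were the members separated by group, a count near the background given above. Maff, a small Maf that pairs with NRF and BACH proteins and is inducible by stress, stood at 9.62, 9.78 and 12.6 RPKM in shCTL (10.7 ± 1.66, SD, n = 3) against 19.3, 14.8 and 15.3 RPKM in shHSF1 (16.4 ± 2.47). Mafk, its close relative, stood at 7.30, 8.44 and 9.37 RPKM in shCTL (8.37 ± 1.04) against 13.2, 10.7 and 11.1 RPKM in shHSF1 (11.7 ± 1.31). In both genes shHSF1 replicate 1 was the highest library and shCTL replicate 1 the lowest. The differences were 0.60 for Maff (SE 0.18, interval 0.18 to 1.02, limma adjusted p = 0.276) and 0.46 for Mafk (SE 0.16, interval 0.075 to 0.84, limma adjusted p = 0.349), so neither passed although each gene's own interval lay above 0. The pair differences for replicates 1, 2 and 3 were 0.97, 0.57 and 0.27 for Maff and 0.81, 0.33 and 0.23 for Mafk. Without both replicate 1 libraries the groups were still apart in both, with differences of 0.42 and 0.28 and adjusted p of 0.0978 and 0.128; across the alternatives adjusted p values lay between 0.0772 and 0.731 for Maff and between 0.102 and 0.785 for Mafk.

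Batf3, known for its role in the development of cross-presenting dendritic cells and scarce here, stood at 0.798, 1.89 and 1.97 RPKM in shCTL, from 14, 32 and 38 reads. In shHSF1 it stood at 0.631, 3.16 and 3.33 RPKM, from 11, 83 and 68 reads. Replicate 1 was low in both groups, and its pair went the opposite way from the others. The difference was 0.35 over 6 libraries (SE 0.53, interval −0.93 to 1.63, limma adjusted p = 0.880). With single libraries left out it ran from 0.045, without shHSF1 replicate 3, to 0.93, without shHSF1 replicate 1; it was 0.049 without shCTL replicate 1 and 0.079 without shHSF1 replicate 2. Without both replicate 1 libraries Batf3 rose by 0.62 (SE 0.13, limma adjusted p = 0.0391), the 1 member to pass there; over all alternatives its adjusted p ran from 0.0391 to 0.995. That call rests on 2 libraries a group, in the fit where 11.1% of all genes passed.

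**Figure D2:**
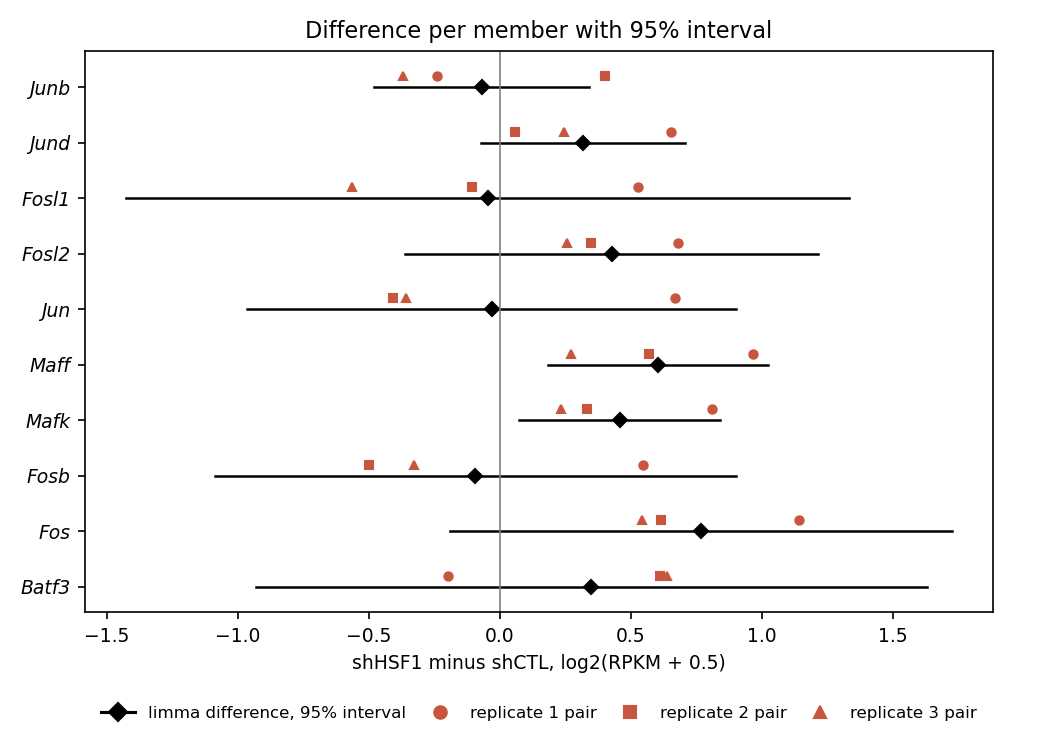
Difference between shHSF1 and shCTL for each member on the log2(RPKM + 0.5) scale: diamonds and lines are the limma estimate with its 95% interval for the single gene, and red symbols the same-numbered pairs. The intervals of Maff and Mafk lie above 0 and those of the other 8 members cross it; no adjusted p was under 0.05.

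Replicate 1 differed from replicates 2 and 3 in the same direction in both groups for 6 of the 10 members. It lay below replicates 2 and 3 in both groups for Fos, Fosl1, Jun and Batf3, and above them in both for Fosb and Fosl2. That is 4 and 2 of 10 members, where 25.0% and 36.6% of all genes did the same, so the split was shared with much of the transcriptome. Relative to the mean of replicates 2 and 3, replicate 1 differed for Fosl1 by −1.82 in shCTL and −0.95 in shHSF1 on the log2 scale, and for Jun by −1.37 and −0.32. For Fosl2 the same differences were 0.62 and 0.99, and for Fosb 0.46 and 1.41. Without the replicate 1 libraries 5 members (Fos, Fosl2, Batf3, Maff and Mafk) were separated upward and 2 (Fosb and Jun) downward, against 33.9% and 28.7% of all genes in that comparison of 2 with 2 libraries.

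**Figure D3:**
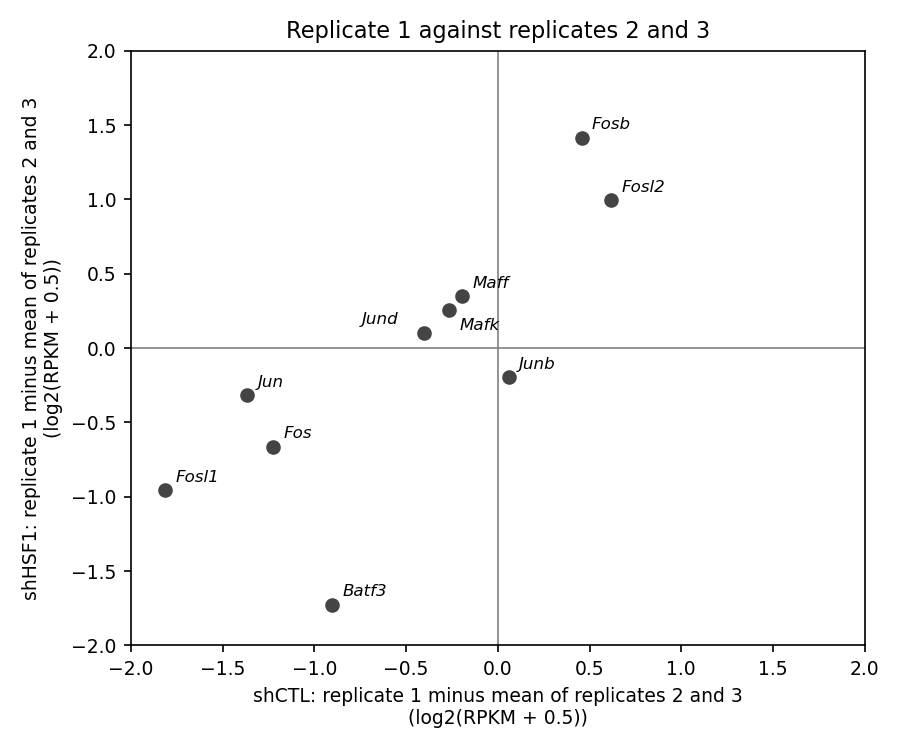
Replicate 1 minus the mean of replicates 2 and 3 for each member, in shCTL (horizontal axis) and shHSF1 (vertical axis), on the log2(RPKM + 0.5) scale. Fosl1, Fos, Jun and Batf3 lie below 0 on both axes, and Fosl2 and Fosb above 0 on both.

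The make-up of the Fos group differed by replicate in a like way in both groups, with the Fosl1 level subject to the shared bases named above. Fosl1 made up 41.0% of the summed Fos group RPKM in shCTL replicate 1 and 38.2% in shHSF1 replicate 1, against 74.2% and 81.1% in shCTL replicates 2 and 3 and 68.6% and 71.1% in shHSF1. The ratio of Fosl1 to Fosl2 was 0.831, 3.83 and 5.53 in shCTL replicates 1 to 3 and 0.749, 2.78 and 3.12 in shHSF1. In each pair the ratio was lower in shHSF1, and in both groups only replicate 1 had more Fosl2 than Fosl1. The Jun group kept a steadier make-up, with Junb at 45.8% to 62.9% and Jund at 29.1% to 41.0% of its sum. Jun held 8.03% to 18.1%. The summed level of the Jun group was 152, 164 and 203 RPKM in shCTL and 170, 184 and 182 RPKM in shHSF1, and that of the Fos group 53.9, 81.3 and 128 RPKM in shCTL and 83.8, 81.6 and 98.2 RPKM in shHSF1. Both sums overlapped between the groups.

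**Figure D4:**
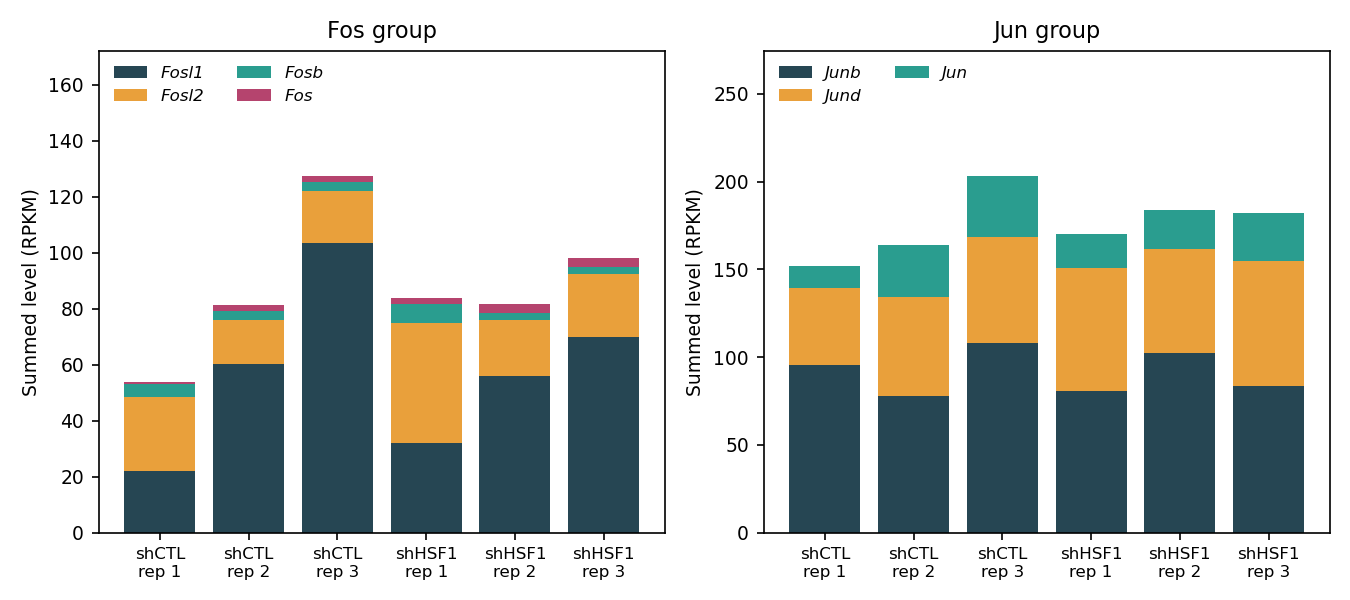
Stacked levels (RPKM, summed) of the Fos group (left) and the Jun group (right) in each library. Fosl2 is the largest part of the Fos group in both replicate 1 libraries and Fosl1 in the other 4, while Junb is the largest part of the Jun group in all 6.

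The genes most like Jun across the 6 libraries, by Pearson correlation of log2(RPKM + 0.5), were Socs6 (0.998), Zfp410 (0.997) and Dph2 (0.997). Tsen15 (0.992) and Zfp850 (0.991) were among the 3 most like Fosl1. These are among the highest of 11385 correlations each, over 6 points that share the replicate 1 split, and are a description only.

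Around the family, 5 lists of pathway genes held 114 genes, 98 of them tested, and none passed over 6 libraries in limma or voom without a block or batch term. At an unadjusted p under 0.05 there were 15, near the 11.4% of all genes. With replicate 1 as a batch covariate 8 passed, and without both replicate 1 libraries 11, where 5.64% and 11.1% of all genes did. The 15 and the 8 include Itgb6, which reached the filter only through shHSF1, as given below. Of 17 other basic leucine zipper partners 10 were tested, with a median difference of 0.14 and none under an unadjusted p of 0.05. Mafg, the other small Maf, stood at 28.7, 25.1 and 27.6 RPKM in shCTL against 46.7, 29.0 and 29.2 RPKM in shHSF1 (difference 0.32, SE 0.21, limma adjusted p = 0.624). Its groups did not overlap, with the replicate 2 and 3 libraries of shHSF1 just above shCTL replicate 1. Nfe2l1, a partner of small Maf proteins that drives proteasome genes, stood at 67.3, 59.5 and 71.5 RPKM in shCTL against 128, 79.8 and 78.0 RPKM in shHSF1 (0.49, SE 0.22, limma adjusted p = 0.462). Atf3, a stress-induced repressor, differed by 0.68 (SE 0.54, limma adjusted p = 0.710) with overlapping groups.

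Of 29 genes of the MAP kinase cascade that leads to AP-1, 28 were tested, with a median difference of 0.11. Of the 28, 8 were separated upward and 2 downward, against 12.9% and 7.16% of all genes. In the batch covariate fit 2 of the 28 passed, against 5.64% of all genes. Without both replicate 1 libraries 3 passed, against 11.1%. Mapk8, which encodes the Jun kinase JNK1, stood at 3.87, 4.03 and 4.24 RPKM in shCTL against 5.85, 6.34 and 6.85 RPKM in shHSF1. Its groups were well apart and narrow, replicate 1 included, but it did not pass over 6 libraries (0.59, SE 0.15, limma adjusted p = 0.228). With replicate 1 as a batch covariate its adjusted p was 0.0418 and without both replicate 1 libraries 0.0308, in a range of 0.0308 to 0.691 over all alternatives. Mapk9, which encodes JNK2, differed by 0.47 (SE 0.16, limma adjusted p = 0.347), and by 0.61 without both replicate 1 libraries, where it passed (limma adjusted p = 0.0308). Rps6ka4, which encodes the kinase MSK2, passed in the opposite direction in both of these fits, at −0.53 with the batch covariate (limma adjusted p = 0.0301) and −0.54 without the libraries (limma adjusted p = 0.0224). Over 6 libraries with no covariate its difference was −0.53 (SE 0.35, limma adjusted p = 0.637) and its groups overlapped. Map3k8, a kinase that activates MEK, differed by 0.73 (SE 0.26, limma adjusted p = 0.365). Among 15 MAP kinase phosphatases and Sprouty-type inhibitors, all tested, the median was 0.017; the receptor signalling inhibitor Spry4 stood at 2.54, 2.72 and 2.55 RPKM in shCTL and 1.69, 1.69 and 1.52 RPKM in shHSF1 (−0.54, SE 0.16, limma adjusted p = 0.294). Dusp7, an ERK phosphatase, differed by −0.26 and Spred2, an inhibitor of the Ras pathway, by 0.27 (limma adjusted p = 0.551 and 0.539).

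Other immediate-early genes, 18 of 21 tested, had a median difference of 0.41, with 15 above 0, where 6500 of 11386 genes were. Of the 18, 7 were separated upward, against 12.9% of all genes. Gadd45b, a stress-inducible regulator of MAP kinase signalling, stood at 4.04, 9.31 and 9.63 RPKM in shCTL against 26.0, 17.1 and 16.1 RPKM in shHSF1 (1.37, SE 0.36, limma adjusted p = 0.235). Without both replicate 1 libraries it differed by 0.78 and passed (limma adjusted p = 0.0144), as did the small GTPase gene Rhob at 0.51 (limma adjusted p = 0.0332), whose groups overlapped over 6 libraries at 0.23 (limma adjusted p = 0.753). They were the 2 of 18 genes that passed in that fit of 2 against 2 libraries, where 11.1% of all genes did. That count is close to the share of all genes. Btg2, an antiproliferative gene, differed by 0.92 (SE 0.25, limma adjusted p = 0.241) and Ier3, a regulator of survival, by 0.67 (SE 0.21, limma adjusted p = 0.313), from 75.6 to 117 RPKM in shCTL against 132 to 187 RPKM in shHSF1. The pair medians of this list were 0.71, 0.41 and −0.053 for replicates 1, 2 and 3, so the replicate 3 pair did not share the direction.

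Of 33 genes known as AP-1 targets 28 were tested, with a median difference of 0.25. Of these, 16 were above 0 and 12 below, near the 6500 of 11386 genes above 0. The collagenase Mmp13 stood at 8.42, 5.52 and 19.5 RPKM in shCTL against 33.4, 115 and 93.7 RPKM in shHSF1 (2.81, SE 0.59, limma adjusted p = 0.180). The gelatinase Mmp9 stood at 2.81, 2.73 and 21.5 RPKM in shCTL against 24.6, 122 and 126 RPKM in shHSF1 (3.56, SE 0.94, limma adjusted p = 0.238). Itgb6, an integrin subunit of epithelia, stood at 0.167 to 0.274 RPKM against 0.764 to 0.823 RPKM (0.84, SE 0.20, limma adjusted p = 0.216). Its shCTL libraries, with 21, 27 and 38 reads, all lay under the filter of 0.5 RPKM. Itgb6 was thus tested only through the group where it was high, so its separation and its call below are given as values only. These 3 genes had the smallest p of the list. All 3 were apart between the groups, with shCTL replicate 3 close below shHSF1 replicate 1 for Mmp9. Of the 28 targets, 6 were separated upward and 1 downward, against 12.9% and 7.16% of all genes. The 6 include Itgb6, so that count is given as a value only. With the replicate block 1 of the 28 targets passed, against 0.176% of all genes. It was the protease Mmp10 (2.18, limma adjusted p = 0.0494), in a range of 0.00178 to 0.752 over all alternatives. Without both replicate 1 libraries 6 of the 28 targets passed, 5 higher and 1 lower, against 11.1% of all genes. They included Mmp9, Mmp10, Mmp13 and Timp1, which were higher, and Met, which was lower. With replicate 1 as a batch covariate 6 of the 28 passed, 5 higher and 1 lower, against 5.64% of all genes. These included Mmp9, Mmp10, Mmp13 and Itgb6, which were higher, and Cd44, which was lower. Because it holds Itgb6, this count too is given as a value only. Replicate 1 lay below replicates 2 and 3 in both groups for 16 of the 28 targets, against 25.0% of all genes. It lay above them in both groups for 3 targets, against 36.6% of all genes.

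**Figure D5:**
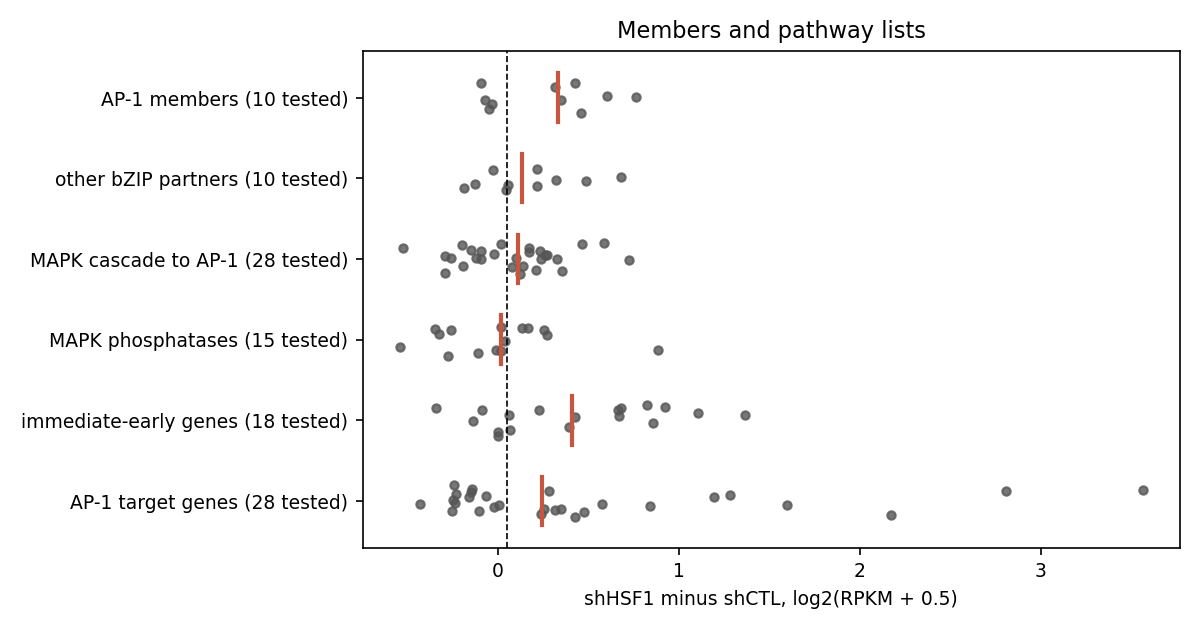
Difference between shHSF1 and shCTL (log2(RPKM + 0.5)) for each tested gene of the family and of 5 pathway lists; red bars are list medians and the dashed line is the median of all genes tested, 0.052. The highest points are Mmp9 at 3.56 and Mmp13 at 2.81, among the AP-1 targets; no point passed an adjusted p of 0.05.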

How the data were processed

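The deposited values are RPKM from STAR and featureCounts on mm10, per the submitters' processing notes. No version, annotation, strand setting or rule for shared reads was stated there. Libraries were made from mRNA with a KAPA kit, per the labels' protocols. Gene length was taken from the table deposited by the authors. RPKM times length, divided by a step fitted for each library, gave whole reads for 100% of values (tolerance 0.001 reads, or a millionth of the count where larger). There were 0 unmatched columns, and 27 symbols had become dates and kept row numbers as names.

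The filter kept genes reaching 0.5 RPKM in 3 libraries or more, which were tested on log2(RPKM + 0.5) with limma 3.58.1 in R 4.3.3 (variance trend, shHSF1 minus shCTL, no block, Benjamini-Hochberg at 0.05); fold changes on that scale understate low genes. Intervals are limma's 95% intervals for the single gene, and Poisson intervals cover counting error only. Named were all members, Hsf1, and from each list those passing or, with none passing, the 3 of smallest p; Ccdc85b, Mmp10 and the genes passing only under alternatives were added after their values were seen. The members and lists were chosen with earlier results of these data known. Replicates are not stated to be separate cultures, so the p-values reflect variation among libraries that may be technical. An exact permutation test of 3 against 3 cannot go below 0.1 and was not used.

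Deviations from group means of same-numbered libraries correlated across genes at 0.58, 0.18 and 0.68, all above 0.1, so the numbers were taken as pairs by that rule. Deviations cancel within a group, and replicate 1 lay apart in both groups. The rule therefore could not decide how replicates 2 and 3 match, and their pair directions are a description only. What a number shares is not stated in the labels. The replicate 2 libraries each correlated more with replicate 3 of the opposite group (0.51 for shCTL replicate 2, 0.24 for shHSF1 replicate 2). The replicate 1 and replicate 3 pairs each correlated more with each other than with any other library of the opposite group. Some results for single genes are not reported here. The code was tested on simulated data. Python 3.11.15, numpy 2.4.6, pandas 2.3.3 and matplotlib 3.10.9 were used.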

Additional observations from a re-analysis of the deposited data

How the results depend on the processing

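Of 180 values of the 10 members under 18 alternatives, 169 kept their direction. The 11 that reversed were all of members near 0. Fosb had 0.059 without shCTL replicate 1, 0.18 without shHSF1 replicate 2 and 0.11 without shHSF1 replicate 3. Fosl1 had 0.063 when shCTL replicate 2 was left out, 0.45 when shCTL replicate 3 was, and 0.27 when shHSF1 replicate 1 was. Jun, with the same 3 libraries left out in turn, had 0.14, 0.25 and 0.075. Junb had 0.015 without both replicate 1 libraries and 0.040 without shCTL replicate 3. With each library left out in turn the values ran from −0.56 to 0.18 for Fosb, −0.65 to 0.45 for Fosl1, −0.49 to 0.25 for Jun and −0.20 to 0.040 for Junb.

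The count of genes passing was 3 and moved to 18 with no filter on low values, 22 with no variance trend, 20 with the replicate block, 642 with replicate 1 as a batch covariate, 1262 without both replicate 1 libraries, 11 in voom and 106 in voom with the replicate block; with single libraries left out it ran from 0 to 8. Passing members moved from 0 to 1 without both replicate 1 libraries, and members apart between groups from 2 to 7 (an alternative chosen after the data were seen). Passing pathway genes moved from 0 to 1 with the replicate block, and to 8, Itgb6 among them, with replicate 1 as a batch covariate. They moved to 11 without both replicate 1 libraries and to 2 in voom with the replicate block. The cause was not tested. The block changed no call of a member. Scaling by median of ratios or quantiles shifted the median difference of all genes by −0.059 and −0.069 and left Maff and Mafk the 2 members apart. The planned edgeR fit was not run, and the voom fits are the count models on recovered reads. Fos and Batf3, with 11 to 249 reads per library, are the members that depth limits most.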
